A study of Homo sapiens with 15 samples.

Results

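Of the 50037 genes in the deposited table, 9 were taken by their gene names: RN7SK, the 7SK RNA, RN7SL1 and RN7SL2, genes of 7SL RNA, RMRP and RPPH1, the RNAs of RNase MRP and RNase P, and the vault RNAs VTRNA1-1, VTRNA1-2, VTRNA1-3 and VTRNA2-1. The choice used the names, and earlier results of these data were known when it was made. Counts were found for 5 of the 9, RMRP, RN7SK, RN7SL1, VTRNA1-2 and VTRNA1-3, and RN7SL2, RPPH1, VTRNA1-1 and VTRNA2-1 stood at 0 in each of the 15 libraries. RMRP, RN7SK, RN7SL1 and VTRNA1-2 passed the filter on low counts and were tested, and VTRNA1-3 did not.

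The series measured small RNA by sequencing in cells that the labels call HEK-293, a human embryonic kidney line, wild type in all groups, and its title speaks of macrophages. The GKT group, 5 libraries, received the products that lipoprotein lipase (LPL) makes from very low-density lipoprotein (VLDL) together with 20 µM GKT136901, which the labels call a NOX1/4 inhibitor (NOX enzymes are NADPH oxidases). The LPL:VLDL group, 5 libraries, received the lipase products without the inhibitor, and the VLDL group, 5 libraries, received VLDL, with pcDNA named beside it in the titles. Incubation lasted 18 h in all groups, and the labels assign replicates 1 to 5 of each group to experiments 2 to 6. Every library thus has 1 partner from its own experiment in each of the other groups. The labels give no group of untreated cells and do not say whether an experiment was a separate culture, so a p-value measures the spread between these libraries. In bulk RNA, fewer cells that make an RNA and less of it per cell cannot be told apart.

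All these RNAs are made by RNA polymerase III and most act as RNA parts of ribonucleoprotein particles. 7SK holds the elongation kinase P-TEFb inactive together with HEXIM and LARP7 proteins, and 7SL is the scaffold of the signal recognition particle, which brings ribosomes with secretory proteins to the endoplasmic reticulum. The RNase P RNA trims the 5′ leader of tRNA precursors, and its relative in RNase MRP acts in ribosomal RNA maturation. Vault RNAs are short, bind the vault particle in part, and include VTRNA2-1, also called nc886, which binds the kinase PKR (EIF2AK2). Small RNA libraries select short inserts, and whole molecules and pieces of these RNAs cannot be told apart in gene counts.

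Libraries held 5076917 to 9619561 counts in GKT, 8630656 to 9575946 in LPL:VLDL and 8420870 to 9757123 in VLDL, and the smallest was the GKT library of experiment 3. Levels are given in CPM, a gene's count relative to the depth of its library, with that depth scaled by trimmed mean of M-values (TMM) factors, which correct for differences in composition, unless CPM of all counts is named. The 3 libraries of experiment 2 stood apart: their TMM factors were 1.16, 1.34 and 1.32, against 0.765 to 1.03 in the other 12, and Y RNAs took 3.12% to 3.25% of their counts, against 0.546% to 1.05%. Markers of both cell types named by the labels and the title were counted. Of 12 genes listed as HEK-293-like markers 5 had any count, 81 counts in all, and LIN28B, NEFM, INA, UCHL1, BEX1, KRT8 and KRT18 were at 0. Their summed level averaged 0.848 CPM ± 1.09 in GKT, 0.179 CPM ± 0.192 in LPL:VLDL and 0.823 CPM ± 0.486 in VLDL libraries (SD, n = 5 each). It was 0.464 to 2.75 CPM in experiment 2, against 0 to 1.07 CPM in experiments 3 to 6. Of 18 macrophage-like markers 17 had counts, 6560 in all, with AIF1 at 0. The summed level of these averaged 42.3 CPM ± 22.5 in GKT, 51.2 CPM ± 42.4 in LPL:VLDL and 55.9 CPM ± 30.3 in VLDL libraries (SD, n = 5 each). It was 82.2 to 126 CPM in experiment 2, against 27.5 to 54.6 CPM in experiments 3 to 6.

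The 4 vault RNAs are shown first because 3 of them are close relatives and yet the counts ran from 0 to 1051. The sequences are the GENCODE release 29 transcripts on GRCh38, 5′ to 3′, whose ends can differ from the RefSeq genes of the count table. Capitals mark the 10 letters GTTCGA, any 2 bases and CC, the core of box B, an internal promoter element of polymerase III. VTRNA1-1 lies at chr5:140711275-140711373 (+), VTRNA1-2 at chr5:140718925-140719013 (+) and VTRNA1-3 at chr5:140726158-140726246 (+), with starts 7650 and 7233 bases apart in the count table, and VTRNA2-1 lies at chr5:136080470-136080597 (-).
VTRNA1-1: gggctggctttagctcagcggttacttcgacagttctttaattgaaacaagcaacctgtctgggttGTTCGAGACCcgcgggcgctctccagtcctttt
VTRNA1-2: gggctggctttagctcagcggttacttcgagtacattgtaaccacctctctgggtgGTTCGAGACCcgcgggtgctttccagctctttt
VTRNA1-3: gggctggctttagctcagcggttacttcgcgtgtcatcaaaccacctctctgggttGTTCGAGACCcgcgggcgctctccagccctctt
VTRNA2-1: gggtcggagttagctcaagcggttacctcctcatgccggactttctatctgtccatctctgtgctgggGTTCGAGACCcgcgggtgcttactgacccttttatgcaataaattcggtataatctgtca

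Identities are shares of all alignment columns, where a column with a gap counts as not identical. VTRNA1-2 and VTRNA1-3 were identical in 87.8% of columns (79 of 90). VTRNA1-1 was identical to VTRNA1-3 in 83% (83 of 100) and to VTRNA1-2 in 81.8% (81 of 99). VTRNA2-1 shared 55% to 55.1% of 129 to 136 columns with each of the other 3. The transcripts are 99, 89, 89 and 128 bases long, in the order shown. Gaps from unequal length lower these shares, so they do not rank how alike the paired bases are. The capitalised core starts at base 67 of VTRNA1-1, 57 of VTRNA1-2, 57 of VTRNA1-3 and 69 of VTRNA2-1, on the strand of the RNA in each, and on neither strand of the other 5 RNAs. It was found, on either strand, in 0.145% of 35116 promoter windows of 100 bases from RefSeq. This shorter motif was chosen after the sequences were seen. The same core with 1 more G before it was present in VTRNA1-2 and VTRNA2-1 alone (0.0655% of windows). TATAA was present in VTRNA2-1 alone (8.88% of windows), at bases 117 to 121 of the 128-base GENCODE transcript. These bases lie past the end of the 108-base gene of the count table. ATTTGCAT was present in none of the 9 (0.626% of windows). Motifs were searched in the RNAs themselves, not upstream of the genes, so nothing is said of their upstream promoters. The run TTTT, the usual polymerase III terminator, occurs on the RNA strand of VTRNA1-1, VTRNA1-2 and VTRNA2-1 and in 48.6% of windows.

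RMRP, at chr9:35657751-35658018 (-), is shown as the member with the most counts, 49728 in all, and none of its 25-base windows was found in transcripts of another locus. RN7SK, at chr6:52995621-52995948 (+), followed with 24750 counts.
RMRP: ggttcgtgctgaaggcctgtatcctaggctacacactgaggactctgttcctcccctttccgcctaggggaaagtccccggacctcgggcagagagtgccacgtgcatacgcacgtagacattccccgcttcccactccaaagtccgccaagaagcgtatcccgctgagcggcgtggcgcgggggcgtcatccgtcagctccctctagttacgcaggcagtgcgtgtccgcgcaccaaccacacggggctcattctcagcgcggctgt

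The RNAs differed in how much sequence and annotation they share with other loci, which bears on how their reads could be counted. Per the file headers the authors' counting used no option for reads that map to several places, lie over several genes or need a strand. Of the 25-base windows of RN7SL1 98.2% were also found in transcripts of other loci, 1593 genes in all, of RN7SL2 97.8% (991 genes) and of RN7SK 96.7% (147 genes, most often the pseudogene RN7SKP71). The shares were 24% for VTRNA1-1, 23.1% for VTRNA1-3 and 9.23% for VTRNA1-2, and 0 for RMRP, RPPH1 and VTRNA2-1. RN7SK and RN7SL1 counts are therefore uncertain, since reads that map to several loci may be left out, while none of the RMRP windows was found elsewhere among the transcripts searched.

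The 4 members at 0 fell into 3 situations. All 299 annotated bases of RN7SL2 lie in an exon of LOC105378179 (112 counts in all), and all 98 of VTRNA1-1 lie in an exon of LOC105378198 (chr5:140711276-140711542, 337 counts in all), so that a read inside either RNA lies over both genes. RPPH1 (chr14:20343071-20343411, minus strand, 341 bases) overlaps no other exon, but the table holds another copy named RPPH1_1 on a sequence other than chromosome 14, also at 0. Of 3430 genes with a copy so named 5.69% had any count, against 52.2% of 40646 genes without one. VTRNA2-1 (108 bases in the count table, chr5:136080491-136080598) has neither an overlapping exon nor a named copy, and its 0 allows at most 0.307 to 0.591 CPM in a library, the worth of 3 counts. For RN7SL2, VTRNA1-1 and RPPH1 the part that counting played in the 0 was not tested, and no level is read from it. Such limits cover counting error only.

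**Figure D1:**
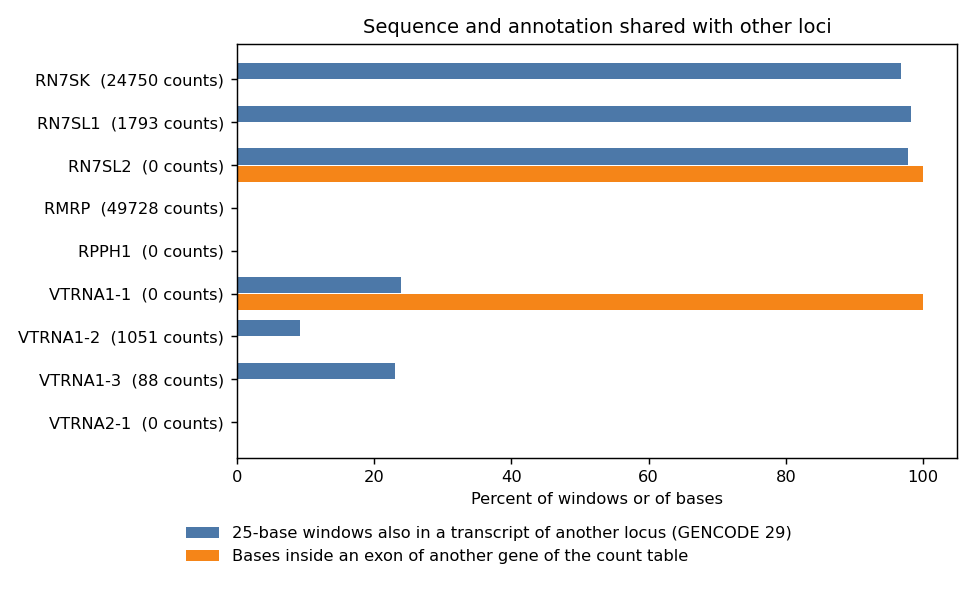
Percent of each RNA's 25-base windows found in transcripts of other loci (blue) and percent of its annotated bases inside an exon of another gene of the table (orange), for the 9 RNAs with their total counts. RN7SK and the 7SL pair share 96.7% to 98.2% of windows, and RN7SL2 and VTRNA1-1, both at 0 counts, lie wholly inside another gene's exon.

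The 9 RNAs took a small part of each library: 0.0585% ± 0.00534 of counts in GKT, 0.0566% ± 0.00574 in LPL:VLDL and 0.0602% ± 0.00698 in VLDL libraries (SD, n = 5 each). Per kilobase of annotated length, levels over all 15 libraries were 1401 CPM per kb ± 221 for RMRP (SD), 570 ± 111 for RN7SK, 86.2 ± 51.6 for VTRNA1-2, 46.4 ± 14.3 for RN7SL1 and 7.45 ± 2.68 for VTRNA1-3. RMRP (1087 to 1824 CPM per kb), RN7SK (380 to 711), RN7SL1 (21.8 to 73.2) and VTRNA1-3 (3.56 to 11.8) did not overlap in their ranges. VTRNA1-2, at 14.1 to 173 CPM per kb, overlapped RN7SL1, and its SD exceeded the difference between the means of those neighbours. As the counts of RN7SK and RN7SL1 may leave out reads shared with copies, this is an order of counted reads.

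**Figure D2:**
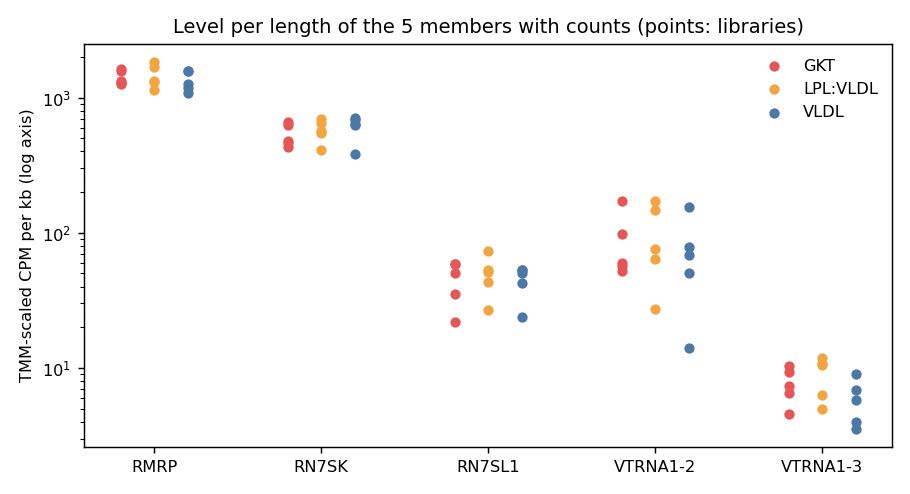
Level per kilobase of annotated length (TMM-scaled CPM per kb, log axis) of the 5 RNAs with counts, 1 point for each library, coloured by group. RMRP was highest, followed by RN7SK, VTRNA1-2 and RN7SL1 overlapped, and VTRNA1-3 was lowest, at 3.56 to 11.8 CPM per kb.

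The design sets LPL:VLDL against VLDL, which asks what the lipase products change. GKT against LPL:VLDL asks what the inhibitor changes in cells given those products. In GKT against VLDL the lipase products and the inhibitor differ together, so their parts cannot be told apart there. The comparisons share groups and are not independent of each other. None of the 4 tested RNAs differed beyond the spread between libraries in any of them by edgeR, where 0% of all tested genes passed in each.

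RN7SK, which keeps P-TEFb inactive, had 144, 210, 153, 158 and 220 CPM in GKT libraries of experiments 2 to 6, 136, 229, 180, 188 and 214 CPM in LPL:VLDL and 126, 236, 225, 209 and 211 CPM in VLDL libraries. Means were 177 ± 35.1, 189 ± 35.5 and 201 ± 43.4 CPM (SD, n = 5 each), in the same order of groups. The 3 groups overlapped, as for every member (groups were apart in 0.561% of tested genes for LPL:VLDL and VLDL, 0.488% for GKT and LPL:VLDL and 0.512% for GKT and VLDL), and experiment 2 gave the lowest value in each. The log2 difference was -0.19 (SE 0.22) for GKT against VLDL, a fold of 0.878 (95% interval 0.631 to 1.22), with GKT lower in 3 of 5 experiments. It was -0.10 (SE 0.22, fold 0.671 to 1.30) for GKT against LPL:VLDL, or 0.01 with library size alone, and -0.09 (SE 0.22, fold 0.675 to 1.31) for LPL:VLDL against VLDL. With library size alone it was -0.22 for GKT against VLDL and -0.23 for LPL:VLDL against VLDL. In CPM of all counts GKT was above VLDL in 1 of 5 experiments, and LPL:VLDL was above VLDL in 1 of 5. The adjusted p of edgeR's quasi-likelihood test was at least 0.999 after rounding for each.

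RN7SL1 is a gene of the signal recognition particle RNA. RN7SL3, a further 7SL gene outside the chosen set, had 241 counts in all, against 1793 for RN7SL1. RN7SL1 had 6.52, 17.7, 15.2, 10.6 and 17.5 CPM in GKT libraries of experiments 2 to 6. It had 8.08, 12.9, 21.9, 16.0 and 15.3 CPM in LPL:VLDL and 7.12, 14.98, 12.6, 15.8 and 15.9 CPM in VLDL libraries. Values of the 3 groups overlapped, and in each group the library of experiment 2 was lowest. Means were 13.5 ± 4.83 CPM in GKT, 14.8 ± 5.02 in LPL:VLDL and 13.3 ± 3.69 in VLDL libraries (SD, n = 5 each). LPL:VLDL differed from VLDL by 0.16 on the log2 scale (SE 0.32, fold interval 0.686 to 1.82), higher in 3 of 5 experiments. GKT differed from LPL:VLDL by -0.14 (SE 0.32, fold interval 0.558 to 1.48) and from VLDL by 0.02 (SE 0.32, fold interval 0.623 to 1.65), and that last value turned to -0.01 with the experiment as a block. The edgeR adjusted p was at least 0.999 after rounding in each.

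RMRP, the RNA of RNase MRP, had the most counts of the 9. Its levels were 340, 436, 425, 346 and 357 CPM in GKT libraries of experiments 2 to 6, 309, 492, 453, 359 and 352 CPM in LPL:VLDL and 293, 428, 425, 340 and 319 CPM in VLDL libraries. Means were 381 ± 46.1, 393 ± 76.4 and 361 ± 61.8 CPM (SD, n = 5 each) in that order, and the groups overlapped. LPL:VLDL was above VLDL in 5 of 5 experiments, as were 3.44% of the 4099 tested genes, but in 2 of 5 in CPM of all counts. The log2 difference was 0.12 (SE 0.20, fold interval 0.809 to 1.47, edgeR adjusted p = 0.999). With the experiment as a block the difference was 0.12 (SE 0.10, edgeR unadjusted p = 0.237). With library size alone it was -0.03. GKT was above VLDL in 5 of 5 experiments (4 of 5 in CPM of all counts), as were 3.66% of tested genes. In experiment 4 the values were nearly equal, at 425.1 CPM in GKT and 424.7 CPM in VLDL, a log2 difference of 0.0011. The fitted log2 difference of GKT from VLDL was 0.08 (SE 0.20, fold interval 0.784 to 1.42). Against LPL:VLDL the difference of GKT was -0.05 (SE 0.20, fold interval 0.719 to 1.30), or 0.07 with library size alone.

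A ratio of RMRP to RN7SK counts within a library is free of scaling, and it was chosen after these values were seen. It was 2.21 ± 0.423 in GKT, 2.10 ± 0.333 in LPL:VLDL and 1.83 ± 0.311 in VLDL libraries (SD, n = 5 each), with ranges of 1.62 to 2.79, 1.65 to 2.52 and 1.51 to 2.32 that overlapped. The ratio was higher with GKT than with VLDL in 5 of 5 experiments, with LPL:VLDL than with VLDL in 4 of 5 and with GKT than with LPL:VLDL in 3 of 5. No test was made of it, and the share of other gene pairs that would give such counts was not computed.

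VTRNA1-2 varied more between libraries than any of the other 3 tested RNAs. It had 15.1, 5.23, 8.56, 4.57 and 5.03 CPM in GKT libraries of experiments 2 to 6, 13.03, 15.2, 6.72, 5.58 and 2.41 CPM in LPL:VLDL and 13.7, 6.01, 6.89, 1.24 and 4.46 CPM in VLDL libraries. The groups overlapped over nearly their whole ranges, and the library of experiment 2 was highest in GKT and in VLDL and came after that of experiment 3 in LPL:VLDL. Means were 7.70 ± 4.43, 8.60 ± 5.35 and 6.46 ± 4.59 CPM (SD, n = 5 each). LPL:VLDL differed from VLDL by 0.41 on the log2 scale (SE 0.48, fold 1.32, 95% interval 0.642 to 2.73), higher in 2 of 5 experiments, and experiments ranged from -0.88 to 2.17. The difference was 0.09 without the LPL:VLDL library of experiment 3 and 0.86 without the VLDL library of experiment 2. The difference of GKT from LPL:VLDL was -0.15 (SE 0.48, fold interval 0.436 to 1.86) and that of GKT from VLDL 0.25 (SE 0.48, fold interval 0.576 to 2.46). Each edgeR adjusted p was at least 0.999 after rounding. Counts were 11 to 156 per library, and counting error alone gives a coefficient of variation of 11.9%, against the 69.9% seen in CPM of all counts. For RMRP these were 1.74% and 12.9%, for RN7SK 2.46% and 13.03%, and for RN7SL1 9.15% and 25.4%.

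VTRNA1-3, with 2 to 12 counts in a library, was below the filter. Its groups summed to 29 counts in GKT, 35 in LPL:VLDL and 24 in VLDL libraries, or 0.711, 0.760 and 0.523 CPM with exact 95% Poisson intervals of 0.476 to 1.02, 0.529 to 1.06 and 0.335 to 0.778, which overlap. Its variation of 42.3% was close to the 41.3% that counting gives. In an edgeR fit without the filter it was not called. LPL:VLDL differed from VLDL by 0.59 on the log2 scale (SE 0.97, edgeR unadjusted p = 0.543). GKT differed from LPL:VLDL by -0.21 (SE 0.97, edgeR unadjusted p = 0.825) and from VLDL by 0.38 (SE 0.97, edgeR unadjusted p = 0.699). Among the counted vault RNAs VTRNA1-2 made up 84.6% to 94.8% of counts in GKT, 72% to 96.5% in LPL:VLDL and 61.1% to 97.5% in VLDL libraries. These shares leave out VTRNA1-1, whose reads lie over another gene.

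**Figure D3:**
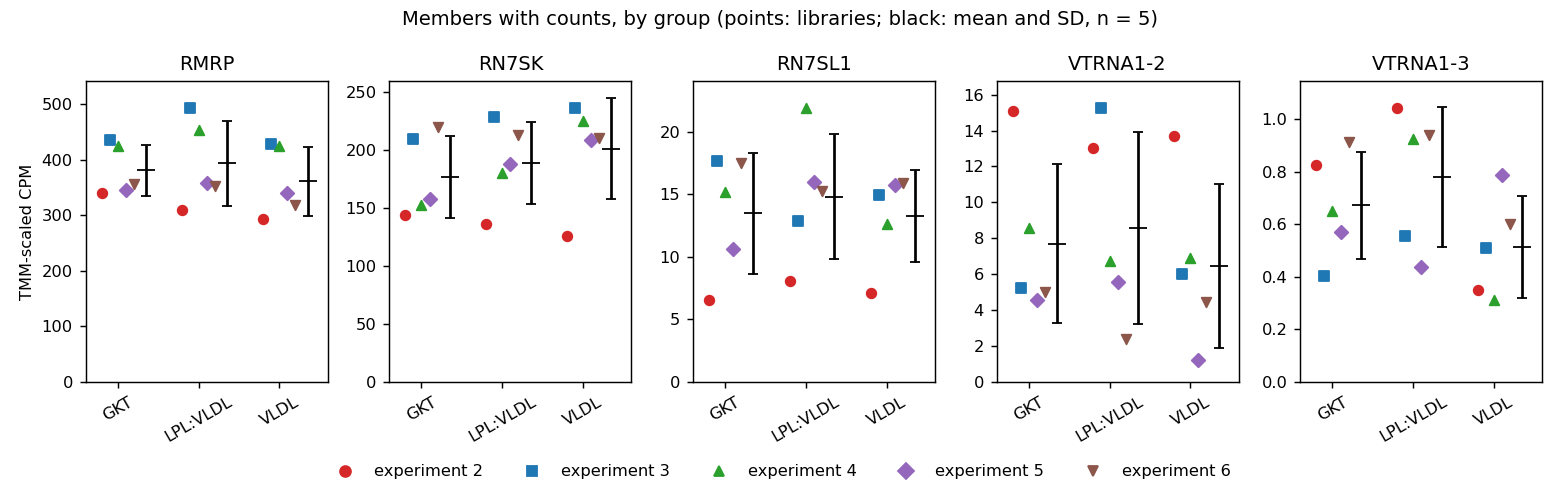
TMM-scaled CPM of the 5 RNAs with counts in each library, by group, with symbols for experiments 2 to 6 and black bars for the mean and SD (n = 5). Groups overlap in every panel, and the red circles of experiment 2 are low for RMRP, RN7SK and RN7SL1 and high for VTRNA1-2.

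None of the 4 tested RNAs passed an adjusted p under 0.05 in any of the 3 comparisons, with or without the experiment as a block. Among all 4099 tested genes the share that passed was 0% in LPL:VLDL against VLDL, 0% in GKT against LPL:VLDL and 0% in GKT against VLDL by edgeR (0.0244%, 0% and 0% with the block). At an unadjusted p under 0.05 there were 0 of the 4 members in each, and 77, 87 and 91 genes in all (172, 151 and 177 with the block). None of the 4 was lower in 5 of 5 experiments in LPL:VLDL against VLDL, GKT against LPL:VLDL or GKT against VLDL (3.46%, 3.32% and 3.73% of tested genes were), or higher in 5 of 5 in GKT against LPL:VLDL (3.2% were). DESeq2 and limma voom also called 0 of the 4 in each. The intervals of the fit with group alone reached folds of 0.719 to 1.47 for RMRP over the 3 comparisons and 0.436 to 2.73 for VTRNA1-2. That fit leaves out the pairing by experiment. With the experiment as a block the SE was smaller. In LPL:VLDL against VLDL it was 0.10 against 0.20 for RMRP and 0.32 against 0.48 for VTRNA1-2. No interval was computed from the blocked fit. A p above the threshold does not show that levels were alike.

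**Figure D4:**
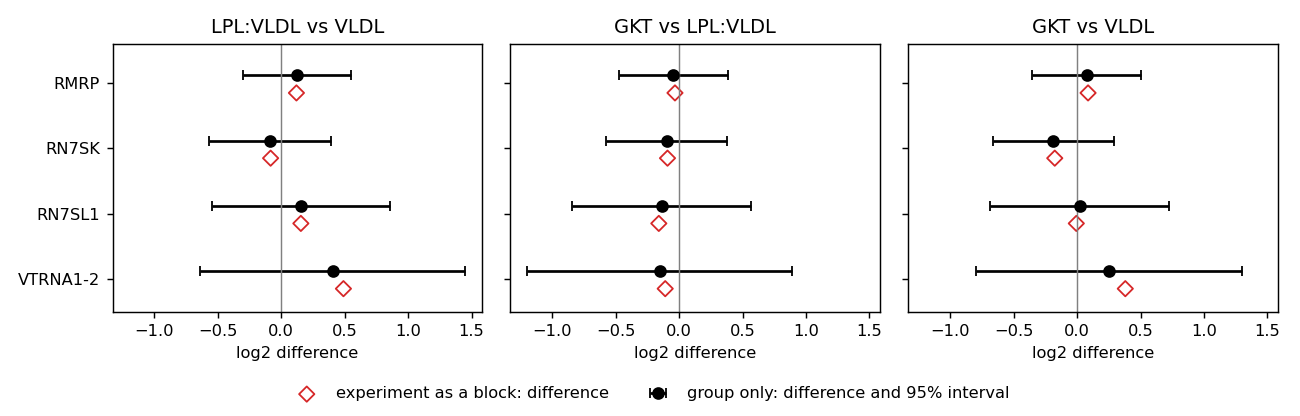
Log2 difference (first-named over second-named group) of the 4 tested RNAs in the 3 comparisons, from edgeR with group alone (black, with 95% interval) and with the experiment as a block (red diamonds). Every interval crosses 0, and intervals are widest for VTRNA1-2.

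Levels of these RNAs differed between experiments. With group in the model, 4 of the 4 tested RNAs differed among experiments 2 to 6, as did 11.1% of the 4099 tested genes (455). The F statistic over 4 degrees of freedom was 8.22 for VTRNA1-2 (edgeR adjusted p = 0.00292), 6.89 for RN7SK (adjusted p = 0.00752), 6.63 for RN7SL1 (adjusted p = 0.00899) and 6.51 for RMRP (adjusted p = 0.00989). All 4 calls ended without experiment 2: then 145 genes and 0 of the 4 members passed, with edgeR adjusted p of 0.116 for RMRP, 0.283 for VTRNA1-2, 0.621 for RN7SK and 0.981 for RN7SL1. RN7SL1 also lost its call without the GKT (adjusted p = 0.0644) or the LPL:VLDL (0.0525) library of experiment 2, and RN7SK without the VLDL one (0.0727).

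VTRNA1-2 was at 13.9 CPM ± 1.06 in experiment 2 (SD, n = 3) and 5.99 ± 3.50 in experiments 3 to 6 (SD, n = 12), a ratio of means of 2.33, with overlapping ranges of 13.03 to 15.1 and 1.24 to 15.2 CPM. The ratio was 3.17 in CPM of all counts, where its 17.4 to 18.0 CPM stood above the 1.18 to 11.6 CPM of the other 12 libraries. RN7SL1 was lower in experiment 2 on both scales, at 0.466 of the level of the others with TMM factors and 0.630 in CPM of all counts, where ranges of 7.54 to 10.8 and 9.83 to 20.2 CPM overlapped. RN7SK stood at 0.669 with TMM factors and 0.901 without, and RMRP at 0.797 with and 1.07 without them, so the direction of RMRP flips. Under library-size scaling 2 of the 4 RNAs were called, VTRNA1-2 (edgeR adjusted p = 0.000108) and RMRP (0.0336), and RN7SK (0.705) and RN7SL1 (0.291) were not. RMRP was 452 CPM ± 35.2 in experiment 3, 434 ± 16.4 in experiment 4, 348 ± 9.73 in experiment 5 and 343 ± 20.7 in experiment 6, against 314 ± 23.5 in experiment 2 (SD, n = 3 each). The macrophage-like and HEK-293-like markers and the Y RNA share given above were higher in experiment 2, the HEK-293-like ones with overlapping ranges, and their part in these differences was not tested.

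**Figure D5:**
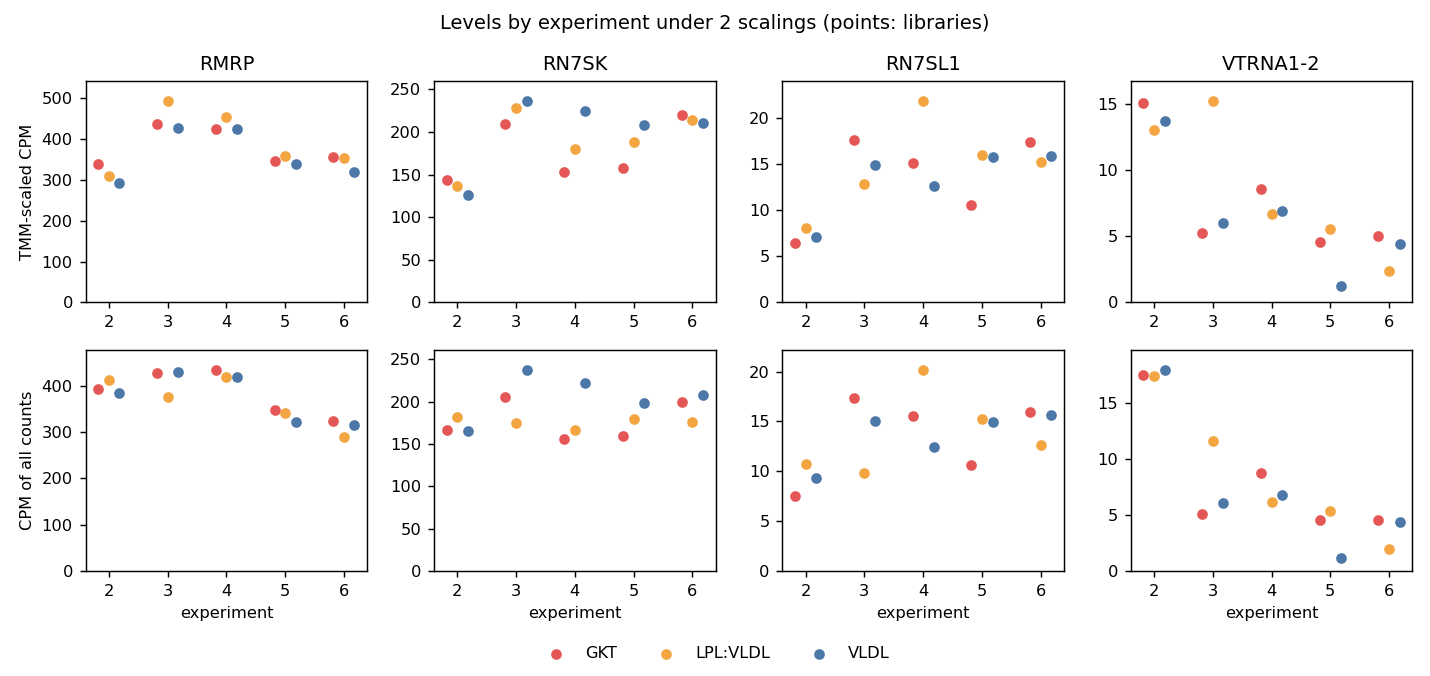
Levels of the 4 tested RNAs in experiments 2 to 6, in TMM-scaled CPM (upper row) and in CPM of all counts (lower row), 1 point for each library. VTRNA1-2 is high in experiment 2 on both scales. RN7SK is at 0.669 of the other experiments there in the upper row and 0.901 in the lower, and RMRP is at 0.797 in the upper row and 1.07 in the lower.

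Protein partners of these RNAs were read from fragments of their mRNAs in the same libraries. Levels were low. Group means of the partner and machinery genes named ran from 0.343 CPM (POLR2H in LPL:VLDL) to 3.81 CPM (MEPCE in LPL:VLDL). The worth of 3 counts in a library was 0.307 to 0.591 CPM. Values are log2 differences in the order LPL:VLDL against VLDL, GKT against LPL:VLDL and GKT against VLDL, and medians over all tested genes were 0.0097, -0.0195 and -0.0042. No gene of the lists in this paragraph and the next was called in any comparison. Of the 7SK particle 4 of 7 genes were tested, with medians of 0.22, -0.11 and 0.20 and 3, 2 and 2 genes above 0. MEPCE, which caps 7SK, had 0.16 (SE 0.43), -0.50 (SE 0.44) and -0.34 (SE 0.44). HEXIM1, the inhibitor of P-TEFb, had 0.27 (SE 0.76), 0.18 (SE 0.76) and 0.45 (SE 0.76). CDK9, its kinase, had -0.35 (SE 0.83), 0.83 (SE 0.83) and 0.47 (SE 0.82), and CCNT2, a cyclin partner of CDK9, 0.35 (SE 0.67), -0.40 (SE 0.68) and -0.06 (SE 0.68). Of the signal recognition particle and its receptor 2 of 8 genes were tested. SRP72, a protein of the particle, had -0.45 (SE 0.72), -0.95 (SE 0.75) and -1.40 (SE 0.75), and SRPRA, a receptor subunit, -0.35 (SE 0.52), 0.21 (SE 0.53) and -0.14 (SE 0.52).

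Of 11 RNase P and MRP proteins 0 were tested, although 9 had counts. Of 8 genes of the vault particle and of vault RNA handling 3 were tested. NSUN2, which methylates vault RNA, had -0.82 (SE 0.57), 0.76 (SE 0.58) and -0.06 (SE 0.56), SRSF2, an RNA-binding protein, 0.12 (SE 0.36), -0.55 (SE 0.37) and -0.44 (SE 0.37), and EIF2AK2 0.495 (SE 0.74), -0.03 (SE 0.74) and 0.47 (SE 0.74). Of RNA polymerase III 2 of 18 genes were tested, both subunits shared with polymerase II: POLR2H had -2.26 (SE 0.95), 1.57 (SE 0.95) and -0.69 (SE 0.87), and POLR2L -0.69 (SE 0.93), -0.41 (SE 0.96) and -1.10 (SE 0.95). POLR2H averaged 0.984, 0.343 and 1.62 CPM in GKT, LPL:VLDL and VLDL libraries, and some libraries held 0 counts of it. Of the transcription factors of polymerase III 6 of 17 were tested, with medians of -0.40, 0.62 and 0.15 and 1, 5 and 4 genes above 0, in comparisons that share their libraries. GTF3C4, a subunit of the factor TFIIIC, had -0.72 (SE 0.43), 0.69 (SE 0.43) and -0.03 (SE 0.42), and SNAPC4, of the complex that binds promoters of snRNA type, -0.66 (SE 0.80), 0.77 (SE 0.81) and 0.11 (SE 0.79). The TFIIIC subunits GTF3C2 and GTF3C1 had 0.97 (SE 0.97), -0.17 (SE 0.95) and 0.80 (SE 0.97), and -0.14 (SE 0.76), 0.09 (SE 0.76) and -0.05 (SE 0.76).

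In the experiment test, where 11.1% of all tested genes were called, 0 genes of these 6 partner and machinery lists were. Of 48 other polymerase III RNAs 7 were tested, 0 were called between groups and 4 between experiments, among them RNY1 (F 98.0), RNY5 (F 24.4) and RNY3 (F 15.1), while RNA5S9, a 5S rRNA gene, was not (F 1.19, edgeR adjusted p = 0.683).

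The RNAs most like each member over the 15 libraries were looked for among 468 genes with a mean of at least 10 CPM, by Pearson's r of log2 TMM-scaled CPM, as a description. The nearest to RN7SK were RNU5E-1, a U5 spliceosomal RNA (r 0.88), and the snoRNAs SNORD102 (0.86) and SNORD58C (0.85). RN7SL1 was nearest to TRS-GCT3-1 (0.94), MIR30E (0.88) and MIR152 (0.88), and VTRNA1-2 to SOD2 (0.82), MIR212 (0.80) and MIR100 (0.80). RMRP was nearest to TRG-TCC1-1 (0.95), TRT-AGT1-1 (0.94) and TRNH (0.93). Members of a pair share libraries, depth and TMM factors. Over the 12 libraries of experiments 3 to 6, RN7SL1 had r of 0.28 with MIR30E and 0.44 with MIR152, whereas RMRP kept 0.92 with each of its 3. Without TMM factors, over 15 libraries, RN7SK had r of 0.69 with RNU5E-1, 0.56 with SNORD102 and 0.44 with SNORD58C, and VTRNA1-2 had 0.86 with SOD2, 0.85 with MIR212 and 0.84 with MIR100. RMRP had r of 0.49 with TRG-TCC1-1 and 0.56 with TRT-AGT1-1, both nuclear tRNAs, and 0.90 with TRNH, a mitochondrial tRNA.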

How the data were processed

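Small RNA of 15 libraries, 5 in each of 3 groups, was sequenced. The deposited values are unnormalized counts of reads per gene. Per the submitters' processing notes, fastp 0.24.0, STAR 2.7.11b and hg38 were used. Per the file headers, featureCounts 2.0.6 counted exons grouped by gene over a RefSeq annotation. The role of the R, edgeR and DESeq2 versions named in the notes is not given in the sources used here.

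From these counts, edgeR 4.0.16 (R 4.3.3) fitted all 15 libraries with group as the term after its default low-count filter (minimum count 10, total 15), which left 4099 genes holding 99.7% of counts, with TMM factors. The quasi-likelihood F test was two-sided, with Benjamini-Hochberg adjustment over those genes and a threshold of 0.05. Experiments were tested together with group in the model. Groups, replicates and experiments came from the labels. The labels give same-numbered replicates a shared experiment, which pairs them: their deviations from group means correlated at 0.07 to 0.38 (median 0.11, 15 pairs), against a median of -0.07 for other numbers. Alternatives were the experiment as a block, DESeq2 1.42.0, limma 3.58.1 voom, other scalings and filters, and each library or experiment left out. The test code was tested on simulated data.

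Sequences are GENCODE release 29 transcripts, and those of the 7SL genes are not reported here; identities came from global alignment with Biopython 1.88, and motif shares from RefSeq promoters. Genes named beyond the 9 are the 3 most alike and up to 4 per list with the highest level. The members and lists were chosen with earlier results of these data known. Depth was 5076917 to 9757123 counts, and the Poisson intervals and the limits on counts of 0 cover counting error only, as reads without molecular identifiers are not independent molecules.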

Additional observations from a re-analysis of the deposited data

Results flagged for a closer look

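RN7SK in the VLDL library of experiment 2 was far below the rest of its group, at 126 CPM, against 209 to 236 CPM in the other 4 VLDL libraries. The gap to its neighbour was 0.75 of the group's range, past the critical value of 0.71 for 5 samples. It was the 1 of 15 groups of values checked, and chance picks out about 1 group in 20. The check used TMM-scaled values. It was not made in CPM of all counts, where the same library had 165.5 CPM, against 198 to 238 CPM.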

How the results depend on the processing

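In the comparisons between groups 0 of the 4 tested RNAs were called under any alternative. With the replicate block, which pairs libraries of an experiment, edgeR called 1 gene in LPL:VLDL against VLDL, none of the 9, and 0 in the other comparisons. limma voom with the block, chosen after seeing the data as were the other scalings with the block, called 4 genes there and 3 in GKT against VLDL. Leaving out 1 experiment in turn with the block, edgeR called 0 to 2 genes. The experiment test called 145 to 506 genes and 0 to 4 members when a library or an experiment was left out, and 2 members with library size alone; the other alternatives kept 4 members.

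Log2 differences near 0 changed sign, and the cause was not tested. RN7SL1 in GKT against VLDL was -0.0062 with the block, -0.0143 with library size alone, -0.0205 by limma voom and -3e-04 under the stricter filter. With the block it was -0.0428 with library size, -0.0052 with DESeq2 size factors and -0.0125 by limma voom, and -0.0048, -0.0792, -0.0531 and -0.0561 without replicate 1, 2, 3 or 5. With library size alone, RMRP was -0.0252 in LPL:VLDL against VLDL (-0.0249 with the block) and 0.0669 in GKT against LPL:VLDL (0.069 with the block), and RN7SK in GKT against LPL:VLDL was 0.0148 (0.0047 with the block). With the block, RMRP in GKT against LPL:VLDL was 0.0082 without replicate 2 and 0.0012 without replicate 3, VTRNA1-2 there was 0.2632 without replicate 2, and RN7SL1 in LPL:VLDL against VLDL was -0.0196 without replicate 3.

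Leaving out 1 library at a time without the block, ranges in LPL:VLDL against VLDL were -0.2322 to 0.0037 for RN7SK, -0.0639 to 0.3167 for RN7SL1 and 0.0928 to 0.8587 for VTRNA1-2. In GKT against LPL:VLDL they were -0.2972 to 0.0581 for RN7SL1, -0.1252 to 0.0429 for RMRP and -0.5399 to 0.1464 for VTRNA1-2. In GKT against VLDL they were -0.147 to 0.2015 for RN7SL1, -0.0056 to 0.1402 for RMRP and -0.1414 to 0.6991 for VTRNA1-2.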
